A study of Mus musculus with 6 samples.

Results

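The promoters described here are those of 6831 protein-coding genes with no H3K4me3 peak within 5 kb of a coding start in mouse germinal center (GC) B cells. Where genes are called without a peak below, this distance is meant, and a peak may lie elsewhere in the gene. They were chosen by a rule applied to the peak lists themselves: on the autosomes of GRCm38, a gene was a member if none of the 3 H3K4me3 peak lists held a peak within 5 kb of any of its protein-coding transcription start sites (TSSs). Of 20720 such genes with an annotated coding TSS, 6831 were members, which is 33.0%, and the other 13889 genes had a peak in at least 1 library. The absence of H3K4me3 peaks is therefore how the genes were selected and is given as a description, without a test. The same applies to the distance of the nearest peak and to the H3K4me3 values given below.

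Peak lists of 6 Mint-ChIP libraries were used, 3 for H3K4me3 and 3 for H3K4me1, from spleens of wild-type (WT) mice that had received sheep red blood cells (SRBC) 8 days earlier. Mint-ChIP is a barcoded chromatin immunoprecipitation for small samples, and the input was 50000 cells per library after sorting. According to the labels they were GC Centrocytes, the methods of the study speak of GC B cells, and no mutant or other cell type was profiled in this series. The labels do not say whether the 3 libraries of a mark came from separate animals, so the spread between them may be technical.

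Trimethylation of lysine 4 on histone H3 (H3K4me3) marks the start of genes that are transcribed or ready for transcription. It is laid down by methyltransferase complexes that are recruited in part through unmethylated CpG islands, so that most promoters rich in CpG carry it in most cell types. Monomethylation of the same residue (H3K4me1), placed largely by KMT2C and KMT2D, is typical of enhancers and of the flanks of active promoters. Coding genes without H3K4me3 are mainly those reserved for other tissues, such as chemosensory receptors, keratins and digestive or liver enzymes, and many sit in large tandem arrays.

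Promoter sequences are shown for 5 members and for 1 contrast gene, because base composition was a feature that the selection had not used. Each runs from 250 bases before to 50 bases after a RefSeq transcript start on the strand of the gene, in GRCm38.p6, with CG pairs and the motif TATAAA in capitals. Igsf23 (chr7:19950694-19950993, minus strand), an immunoglobulin superfamily gene, opens the longest run of members and its promoter holds 7 CG pairs. Olfr1164 (chr2:88093917-88094216, minus strand) is the first olfactory receptor gene of the longest run made up mostly of such receptors and has 3 CG pairs. S100a8 (chr3:90668821-90669120, plus strand), a calcium-binding protein of neutrophils, is the first member in the marker lists with TATAAA close to its start, here at position -30. Rpgrip1 (chr14:52110653-52110952, plus strand), a photoreceptor ciliary protein, is the member with H3K4me1 near its start in most libraries. Fign (chr2:64097989-64098288, minus strand), a microtubule-severing ATPase, had the highest CpG ratio of all members and its promoter holds 34 CG pairs. Bcl6 (chr16:23988803-23989102, minus strand), the master transcription factor of GC B cells, is not a member and is shown for contrast, with 31 CG pairs. The choice of Olfr1164, S100a8, Rpgrip1 and Bcl6 was made after their values were seen.
Igsf23: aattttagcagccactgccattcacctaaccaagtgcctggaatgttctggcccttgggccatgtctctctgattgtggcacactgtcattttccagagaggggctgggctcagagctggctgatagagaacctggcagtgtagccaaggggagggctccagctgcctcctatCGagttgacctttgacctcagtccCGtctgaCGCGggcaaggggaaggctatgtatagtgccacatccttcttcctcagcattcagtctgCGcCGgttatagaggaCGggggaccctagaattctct
Olfr1164: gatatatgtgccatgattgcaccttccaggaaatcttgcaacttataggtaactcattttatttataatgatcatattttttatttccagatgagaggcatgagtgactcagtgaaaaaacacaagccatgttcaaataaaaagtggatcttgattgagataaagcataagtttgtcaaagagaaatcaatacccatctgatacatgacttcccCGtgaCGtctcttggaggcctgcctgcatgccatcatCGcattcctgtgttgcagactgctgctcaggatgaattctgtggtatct
S100a8: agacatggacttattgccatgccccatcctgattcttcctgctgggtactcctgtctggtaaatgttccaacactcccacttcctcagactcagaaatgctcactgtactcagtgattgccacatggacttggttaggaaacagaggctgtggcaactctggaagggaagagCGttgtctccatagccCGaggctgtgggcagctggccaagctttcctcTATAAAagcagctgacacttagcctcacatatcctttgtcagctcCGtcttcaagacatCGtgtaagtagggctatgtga
Rpgrip1: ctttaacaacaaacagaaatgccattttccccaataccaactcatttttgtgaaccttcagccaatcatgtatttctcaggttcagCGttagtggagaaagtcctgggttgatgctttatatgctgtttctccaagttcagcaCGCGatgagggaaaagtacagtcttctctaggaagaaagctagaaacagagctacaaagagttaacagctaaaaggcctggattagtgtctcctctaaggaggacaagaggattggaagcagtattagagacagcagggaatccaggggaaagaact
Fign: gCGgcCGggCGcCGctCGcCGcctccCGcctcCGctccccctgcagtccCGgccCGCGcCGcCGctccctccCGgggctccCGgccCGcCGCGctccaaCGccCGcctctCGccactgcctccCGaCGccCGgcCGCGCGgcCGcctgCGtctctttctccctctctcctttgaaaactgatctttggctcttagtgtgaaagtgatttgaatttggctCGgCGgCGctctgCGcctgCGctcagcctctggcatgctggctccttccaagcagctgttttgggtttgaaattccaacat
Bcl6: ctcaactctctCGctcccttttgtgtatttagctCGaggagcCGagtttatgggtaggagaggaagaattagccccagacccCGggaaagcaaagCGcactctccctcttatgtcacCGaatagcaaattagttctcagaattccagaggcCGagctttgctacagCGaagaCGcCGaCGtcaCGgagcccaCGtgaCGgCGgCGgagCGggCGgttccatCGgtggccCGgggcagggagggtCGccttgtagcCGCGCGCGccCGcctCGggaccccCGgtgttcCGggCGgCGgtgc

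The membership was first set beside lists of marker genes of cell types and tissues and of housekeeping genes. Whether the listed genes are expressed in these cells was not examined here. None of 25 listed GC and B cell genes, 8 plasma cell genes and 15 housekeeping genes was a member, and all of them had a peak in each of the 3 H3K4me3 libraries. Lists of other tissues held many members, against 33.0% of all genes: 11 of 14 liver genes, 10 of 12 striated muscle genes, 5 of 7 pancreas genes, 7 of 12 germ cell genes, 5 of 9 epidermis genes and 5 of 11 neuron genes. Alb, the serum albumin gene, lay 31.4 kb from the nearest H3K4me3 peak of any library, Apob, the apolipoprotein of lipoprotein particles, 35.5 kb and Ttr, the thyroid hormone carrier, 31.5 kb. In muscle the myosin heavy chain genes Myh1, Myh2 and Myh4 lay 39.5, 10.5 and 53.2 kb from a peak. Among pancreas genes the insulin genes Ins1 and Ins2 were 104 and 83.2 kb away, and glucagon (Gcg) 19.4 kb. The sperm chromatin protein gene Tnp1, the acrosomal gene Acrv1 and the egg coat gene Zp2 were 48.8, 32.3 and 41.1 kb away. Of the epidermal genes Krt5 lay 65.6 kb, Krt14 18.2 kb and the filaggrin gene Flg 151 kb from a peak. Of the neuronal genes Snap25, a synaptic fusion protein, lay 51.5 kb, Rbfox3, a splicing factor of neurons, 10.4 kb and Stmn2, a tubulin-binding protein, 5.96 kb from a peak. Other genes of these lists went the other way. A peak in all 3 libraries was found for 2 liver, 1 striated muscle, 2 pancreas, 4 germ cell, 1 epidermis and 2 neuron genes. Among them were Apoa2, Tnnt3, Pdx1, Prm1, Krt10 and Gad1.

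Genes of other blood cells were divided, with shares of 38.9% for T cell genes and 33.3% for myeloid and erythroid genes, near the 33.0% of all genes. Of 18 T cell genes 7 were members: the receptor chain Cd3e at 20.8 kb from a peak, the coreceptors Cd4 at 5.74 kb and Cd8a at 45.8 kb, the cytokine receptor Il7r at 32.0 kb, the costimulatory receptors Icos at 35.6 kb and Cd28 at 13.3 kb, and Thy1 at 5.50 kb. A further 6 T cell genes had a peak in all 3 libraries, among them Cd2, Lck and Ctla4. Of 15 myeloid and erythroid genes 5 were members, namely Lyz2, Mpo, S100a8, S100a9 and Hbb-bs, and 6 had a peak in all 3 libraries. Whether other cells in the sort had a part in these peaks was not tested.

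Absence of a peak recurred between libraries. Of genes with no peak in the other libraries of the mark, 7.61%, 4.30% and 4.97% had one in replicates 1, 2 and 3, a mean of 5.63% ± 1.75 (SD, n = 3). Of genes with a peak in both other libraries, 99.0%, 96.9% and 98.2% had one in the remaining library, a mean of 98.0% ± 1.06 (SD, n = 3). The isolated peaks that ended membership were small. Their median fold enrichment was 3.34, 3.33 and 3.32 in replicates 1, 2 and 3, against 5.86, 5.42 and 5.41 for genes with peaks in both other libraries. Their median width was 258, 224 and 225 bp, against 1580, 1344 and 1380 bp. Between the members and the 11940 genes with a peak in all 3 libraries, which were 57.6% of all, lay 1227 genes with a peak in 1 library and 722 genes with a peak in 2.

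The coding TSSs of most members were far from any H3K4me3 peak. The median distance from the nearest TSS of a member to a peak of any library was 33.3 kb, with quartiles of 15 and 77.6 kb, and the most distant gene was 1710 kb away. A distance over 10 kb was found for 85.6% of members and one over 100 kb for 18.4%. In contrast, 77.1% of the other genes had a TSS inside a peak. Members were not all free of H3K4me3 inside the gene. In at least 1 library 1352 of them (19.8%) had a peak in the gene body, and 545 (7.98%) had one in all 3 libraries. The limit of 5 kb cut through few genes, since 226 members had their nearest peak at 5 to 6 kb and 259 other genes at 4 to 5 kb. Just outside the limit were Acvrl1 at 5004 bp, Gtsf2 and Krt83, both at 5013 bp, and Ccdc24 at 5017 bp. Just inside it were Pdzrn4 at 4999 bp, Gpr22 at 4995 bp, Gm38100 at 4994 bp, Olfr1229 at 4985 bp and Pla2g4c at 4984 bp, each with a peak in 1 library.

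Grouped by the letters that open the gene symbol, part of the members fell into large families: the 98 named families of at least 20 genes held 2556 members, which is 37.4%, and most members were outside them. Olfactory receptors (Olfr), the odorant receptors of the nasal epithelium, gave 1023 members of 1127 genes, which is 90.8% (95% Wilson interval 88.9 to 92.3%) and 15% of all members. Of the remaining receptors 82 had a peak in 1 library, 12 in 2 and 10 in 3. Vomeronasal receptors (Vmn), which detect pheromones, gave 307 members of 329 genes (93.3%), made up of 191 of 208 Vmn1r and 116 of 121 Vmn2r genes. Together the Olfr and Vmn genes were 19.5% of the members. Bitter taste receptors (Tas2r) gave 30 of 35 genes, the taste receptors named Tas1r 0 of 3 and trace amine receptors (Taar) 14 of 15.

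Secreted and structural proteins of surfaces formed a second group of families. Keratin-associated proteins of hair (Krtap) gave 53 of 57 genes, keratins (Krt) 46 of 53, late cornified envelope proteins (Lce) 18 of 21 and small proline-rich proteins of the cornified layer (Sprr) 15 of 15. Antimicrobial beta-defensins (Defb) gave 41 of 42 genes and the alpha-defensins of the gut (Defa) 22 of 22. All 25 prolactin family genes (Prl), all 22 major urinary proteins (Mup) and all 5 casein genes were members, as were 30 of 34 secretoglobins (Scgb). Collagens (Col), which form the extracellular matrix, were mixed, with 27 of 43 genes. Kallikrein-related peptidases (Klk) gave 21 of 26 genes and serine proteases named Prss 27 of 39.

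Metabolic families were divided by branch. Cytochrome P450 genes (Cyp), which oxidise drugs and lipids, gave 70 of 100, with 1 of 3 in Cyp1, 40 of 49 in Cyp2, 9 of 9 in Cyp3 and 14 of 20 in Cyp4. Glucuronosyltransferases (Ugt) gave 20 of 22 genes and sulfotransferases (Sult) 17 of 21. Solute carriers (Slc) gave 114 of 358 genes, 31.8% (Wilson interval 27.2 to 36.8%), which was close to the 33.0% of all genes. Of the 4 branches counted, Slc6 of neurotransmitter and amino acid transport had 10 of 19 members, Slc22, the organic ion transporters, 14 of 25, Slc25, the mitochondrial carriers, 7 of 43 and Slc35, the nucleotide sugar transporters, 3 of 26. The organic anion transporters named Slco, counted apart, had 11 of 14. Zinc finger genes (Zfp), mostly transcriptional repressors, had 55 members of 385 genes (14.3%). The name groups Fam, Tmem and Ccdc, which do not stand for a function, had 47 of 196, 48 of 235 and 32 of 136.

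**Figure D1:**
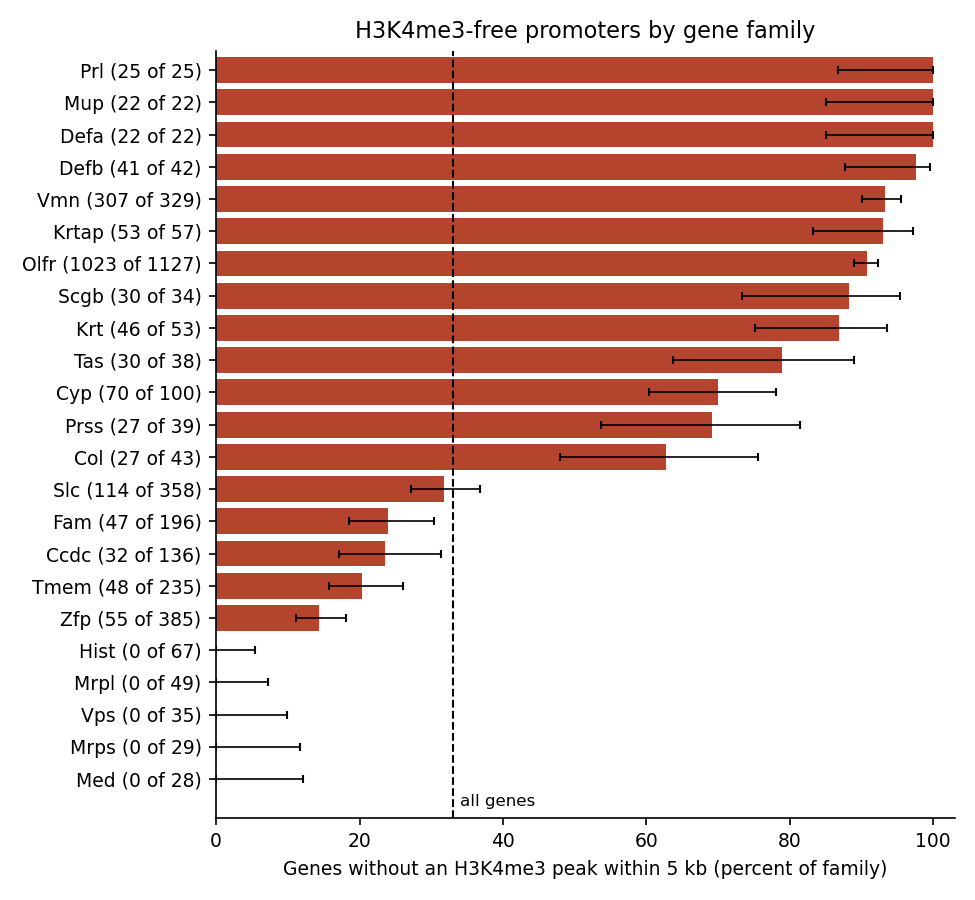
Bars show the share of each gene family, in percent of its genes, that had no H3K4me3 peak within 5 kb of a coding TSS, with the number of genes in parentheses, 95% Wilson intervals (counting error only) and the 33.0% of all genes as a dashed line. Shown are the 18 named families of at least 20 genes with most such genes and 5 families with none. Chemosensory receptors, keratins and defensins lie between 78.9% and 100%, solute carriers lie at the line, and histone, mitochondrial ribosome, vacuolar sorting and Mediator families lie at 0.

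At the other end, no gene was a member among 67 histone genes (Hist), 49 and 29 genes of the mitochondrial ribosome (Mrpl and Mrps), 35 genes of vacuolar protein sorting (Vps) and 28 genes of the Mediator complex (Med). Of 98 named families with at least 20 genes, 15 had over 80% members, 27 had under 10% and 10 had none. Among 196 genes named as cytosolic ribosomal proteins, proteasome subunits or translation initiation factors and their binding proteins, 10 were members, which is 5.10%. These were singled out after their values were seen and several have a tissue-restricted or duplicated form: Psmb11 of the thymic proteasome, Psma8 of the testis proteasome, the copies Rpl10l and Rpl39l of ribosomal proteins, the genes with pseudogene symbols Rpl36a-ps1, Rpl9-ps6 and Rps12-ps3, and Psme2b, Eif4ebp3 and Eif3j2. Genes known only by predicted or clone names were frequent, with 841 of 1150 Gm genes and 245 of 539 Rik genes, together 15.9% of the members.

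The 10 olfactory receptors with a peak in all 3 H3K4me3 libraries were Olfr1402, Olfr17, Olfr372, Olfr373, Olfr374, Olfr433, Olfr56, Olfr630, Olfr750 and Olfr986. Only 3 of them, Olfr373, Olfr433 and Olfr56, had a TSS inside a peak, and another coding gene that is no olfactory receptor started within 10 kb of 3 of the 10. For the 1023 receptors without a peak the median distance to the start of such a gene was 142 kb, and 22 of them (2.15%) had one within 10 kb. For the 82 receptors with a peak in 1 library these values were 141 kb and 3.66%. The start of Olfr56 lay 0.0130 kb from that of another coding gene. Whether the peaks belong to neighbouring genes was not tested.

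Members were grouped along the chromosomes. When coding genes were ordered by position, the 6831 members formed 2686 uninterrupted runs, and 3192 members (46.7%) stood in 290 runs of at least 5 genes. Runs of at least 20 genes numbered 37 and held 1085 members (15.9%), while 1580 members (23.1%) had a non-member on each side. Of Olfr members 87.8% and of Vmn members 85.7% were in runs of at least 5, against 36.9% of the remaining members. The share of genes that were members ranged from 22.9% on chromosome 12 to 47.6% on chromosome 14. Without the Olfr and Vmn genes the range was 21% on chromosome 19 to 45.2% on chromosome 14. Among genes with at least 80% unique sequence, a measure explained below, chromosome 14 had 32.0% and the highest share was 36.5% on chromosome 6.

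The longest runs lay in duplicated sequence. The longest held 94 genes over 3.70 Mb (chr7:19937305-23634370), from Igsf23 to Vmn1r171, with 54 vomeronasal receptors and 35 predicted genes. It had 0, 1 and 0 H3K4me3 peaks in replicates 1, 2 and 3 and 2, 0 and 0 H3K4me1 peaks, where the autosomes averaged 17.3 H3K4me3 and 6.71 H3K4me1 peaks per Mb and library. The next 3 were on chromosome 14 and held 56 genes from Gm8281 to Gm10128 (chr14:5071040-7643972), 53 genes from Gm5798 to the ribonuclease gene Ear1 (chr14:41348609-43875517) and 42 genes from Gm2888 to Gm3298 (chr14:3030002-5019119). The fifth held 38 genes from Defa21 to Fam90a1a (chr8:21025545-21964303), of which 22 were alpha- and 9 beta-defensins.

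How far such sequence can be seen by short reads was measured from the genome, because a read that fits several places may be discarded. Words of 50 bases were taken at intervals of 50 bases within 5 kb of the TSSs and counted as unique if they occurred in a single place on either strand of the genome. Fewer than 80% of the words were unique around 1357 members (19.9%) and around 436 other genes (3.14%). In the longest run this held for 89 of 94 genes, in the runs on chromosome 14 for all 56, 53 and 42 genes, and in the defensin run for 30 of 38. It also held for all 22 Defa and 20 of the 22 Mup genes. Among members it held for 154 of 307 Vmn, 20 of 30 Scgb, 517 of 841 Gm and 33 of 55 Zfp genes, but for 151 of 1023 Olfr genes. Where under 20% of words were unique, 96.0% of 521 genes were members, and where at least 80% were unique, 28.9% of 18927 genes. At such genes the lack of a peak and the lack of placeable reads cannot be told apart. Most members were not of this kind, since 5474 of the 6831 had at least 80% unique words.

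**Figure D2:**
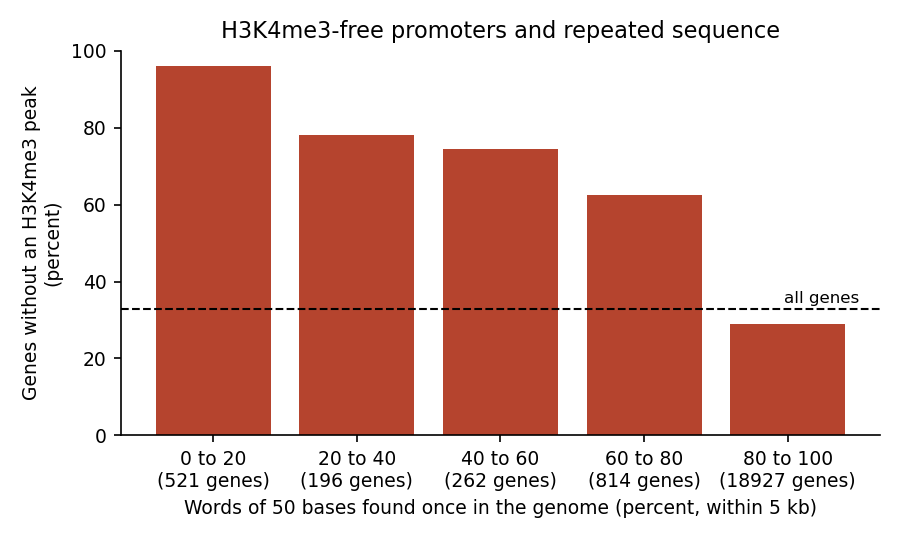
Bars show the share of genes without an H3K4me3 peak within 5 kb, in percent, for genes grouped by the percent of sampled 50-base words within 5 kb of their TSSs that occurred in a single place in the genome, with the number of genes in each group under its bar. The dashed line is the 33.0% of all genes. The share is 96.0% in the group of least unique sequence and 28.9% in the group of most unique sequence.

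With the 1793 genes of repeated sequence set aside and runs formed anew from the other genes, 37.7% of the 5474 members left stood in runs of at least 5, and the longest runs had other occupants. The first went from Olfr20 to Ccdc92b (chr11:73350783-74641516), with 28 olfactory receptors among 32 genes, and the next, from Olfr1022 to Olfr1062 (chr2:85868594-86426749), was made of 31 olfactory receptors. The former was not free of the marks between its promoters, with 14, 10 and 12 H3K4me3 peaks and 4, 5 and 3 H3K4me1 peaks in replicates 1, 2 and 3.

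The longest run in mostly unique sequence that was not led by chemosensory receptors spans 1.58 Mb with 32 genes, from Ugt2b34 to Ambn (chr5:86889767-88468531). It was chosen for display after its values were seen. In order it contains glucuronosyltransferases of the liver and nose (Ugt2b34 to Ugt2a1), the sulfotransferases Sult1b1, Sult1d1 and Sult1e1, the milk caseins Csn1s1, Csn2, Csn1s2a, Csn1s2b and Csn3 with the tooth protein gene Odam among them, salivary proteins such as Smr3a and Smr2, and the enamel genes Amtn and Ambn. H3K4me3 replicates 1, 2 and 3 had 3, 1 and 4 peaks in it, and no H3K4me1 library had any. The flanks of 1 Mb on each side together held 38, 37 and 42 H3K4me3 peaks and 21, 12 and 14 H3K4me1 peaks. In every library most of these lay on the side after Ambn. Those before Ugt2b34 were sparser and lay mostly away from the run. Of the 21 coding genes on these flanks 6 were members, all on the side before Ugt2b34. The run ended before Enam, an enamel gene with an H3K4me3 peak, which is followed by Jchain, the joining chain of polymeric immunoglobulins made by antibody-secreting cells. Ythdc1, a reader of RNA methylation, bordered it on the other side.

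**Figure D3:**
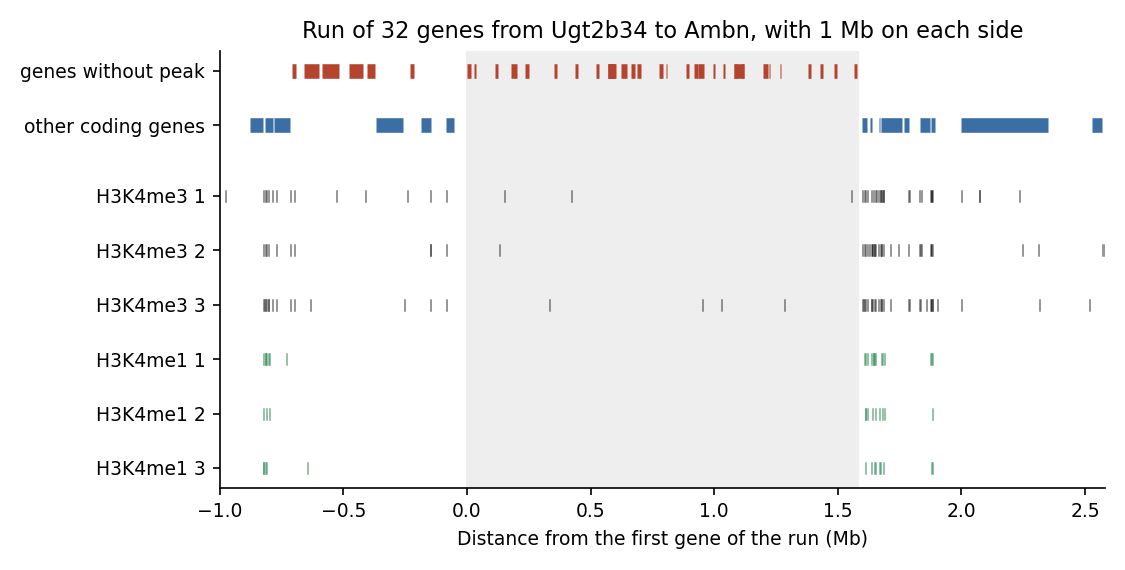
The map shows the run of 32 genes from Ugt2b34 to Ambn (grey) with 1 Mb on each side, with distance from its first gene in Mb along the horizontal axis. The upper rows are coding genes without and with an H3K4me3 peak near a TSS, and the lower rows are the peaks of each library, with the narrowest widened to stay visible. The flanks together have 37 to 42 H3K4me3 peaks per library, and the run itself has 1 to 4. Most flank peaks lie on the right, and those on the left lie mostly away from the run.

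The promoters of members were poor in CpG. The ratio of observed to expected CpG was taken within 500 bp of the most upstream coding TSS of each gene. In the other genes this need not be the start near a peak. The ratio had a median of 0.194 (quartiles 0.112 and 0.373) in members, 0.710 (0.517 and 0.834) in the other genes and 0.586 in all genes. The GC content had medians of 46.6% and 58.4%. A promoter was called CpG-rich at a ratio of at least 0.6 and a GC content of at least 50%, which 739 members (10.8%) met, against 65.3% of the other genes and 47.4% of all. Read the other way, 76.9% of genes with a ratio under 0.2 were members, 54.6% from 0.2 to 0.4, 27.7% from 0.4 to 0.6, 10.4% from 0.6 to 0.8 and 4.50% above. The median rose with each further library that held a peak, from 0.194 with 0 libraries to 0.401 with 1, 0.565 with 2 and 0.731 with 3. Without the Olfr and Vmn genes the median of members was 0.239, so the low ratio was not a feature of these receptors alone. With only the 10000 best H3K4me3 peaks per library, 11540 genes were without a peak and their median ratio was 0.308.

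**Figure D4:**
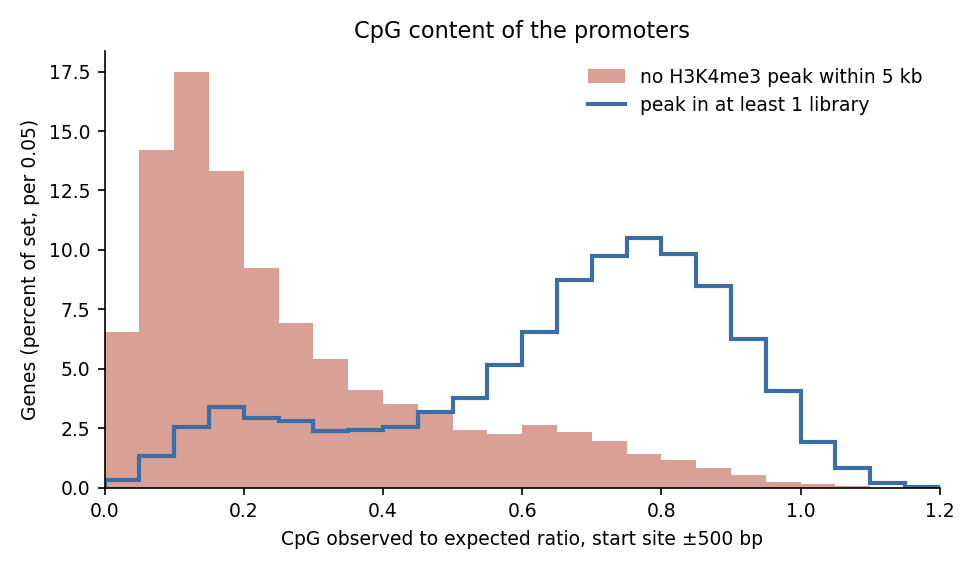
Histograms of the ratio of observed to expected CpG within 500 bp of the most upstream coding TSS, in percent of genes per step of 0.05. Genes without an H3K4me3 peak are filled, and genes with a peak in at least 1 library are drawn as a line. The filled distribution has its highest step, with 17.5% of genes, between 0.1 and 0.15, and the line has its highest step, with 10.5%, between 0.75 and 0.8, with 1 gene beyond the axis.

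The motif TATAAA is the core of the TATA box that places the start of many tissue-specific genes. It was searched on the strand of the gene in the 300 bases around its most upstream coding TSS. It occurred in 1087 members (15.9%), in 722 other genes (5.20%) and in 8.73% of all genes. Between positions -40 and -15, where a working box would lie, it occurred in 4.99%, 1.24% and 2.48%. The share was lower in genes with a peak in more libraries, at 5.96% with 2 libraries and 4.66% with 3. A match to a short motif describes the sequence only, and its frequency depends on base composition.

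The 739 CpG-rich members form the exception. They had a median gene length of 58.3 kb against 8.91 kb for the remaining members, 16.1% of them stood in runs of at least 5 against 50.4%, and 8.12% were of repeated sequence against 21.3%. The highest ratios were those of Fign at 1.09, Bves, a membrane protein of muscle, at 1.08, Bmp2, a bone morphogenetic protein, at 1.08, Tcf15, a transcription factor of somites, at 1.06, and Cadps2, a factor of vesicle release, at 1.05. Their nearest H3K4me3 peaks lay at 20.6, 21.4, 77.7, 38.1 and 26.1 kb, and none of the 5 had an H3K4me1 peak at the promoter or in the gene. By name, 102 CpG-rich members had no family prefix, and the largest groups were 43 Gm, 24 Slc, 15 Rik, 12 Fam and 9 Tmem genes, followed by 8 Adamts genes (extracellular proteases), 7 Zfp genes and 6 Syt genes (synaptotagmins). Groups of 4 genes were Bmp, Cdh, Fgf, Unc and the transcription factors of embryonic patterning Hoxc, Hoxd and Tbx. These are counts only and were not set against the size of each family.

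H3K4me1 was measured in libraries that the selection did not use. The marks are not fully independent, because most H3K4me1 peaks lay over an H3K4me3 peak: of peaks within reach of other genes 83.1% ± 1.86 (SD, n = 3 libraries) did, and of peaks in the windows of members 64.4% ± 4.85. An H3K4me1 peak near a TSS that lies over an H3K4me3 peak generally puts its gene among the other genes. The lower share of members with H3K4me1 near a TSS was therefore set in part by the selection. H3K4me1 replicate 1 held 24136 peaks and replicates 2 and 3 held 13923 and 11922, so it gave the highest count in most comparisons.

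Around the TSSs of members H3K4me1 was almost absent. A peak within 5 kb was found for 69, 33 and 21 members in replicates 1, 2 and 3, which is 1.01%, 0.483% and 0.307%. In the other genes the shares were 41.1%, 26.0% and 24.2%, and the sets did not overlap. The means were 0.6% ± 0.366 and 30.4% ± 9.28 (SD, n = 3), and the difference within libraries was -29.8 ± 8.91 percentage points. Without replicate 1 the mean share of members was 0.395%, with the 10000 best peaks per library it was 3.09%, and at a −log10 q-value of at least 5 the difference was -9.37 percentage points. The two-sided exact sign-flip permutation test over the 3 libraries gave p = 0.25, the smallest value it can reach, so the design cannot pass a threshold of 0.05. Because the selection set part of this difference, the test cannot tell that part from the rest. In at least 1 library 122 members (1.79%) had such a peak, against 37.2% of all genes tested. In all 3 libraries no member had one, against 6.48% of all genes.

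**Figure D5:**
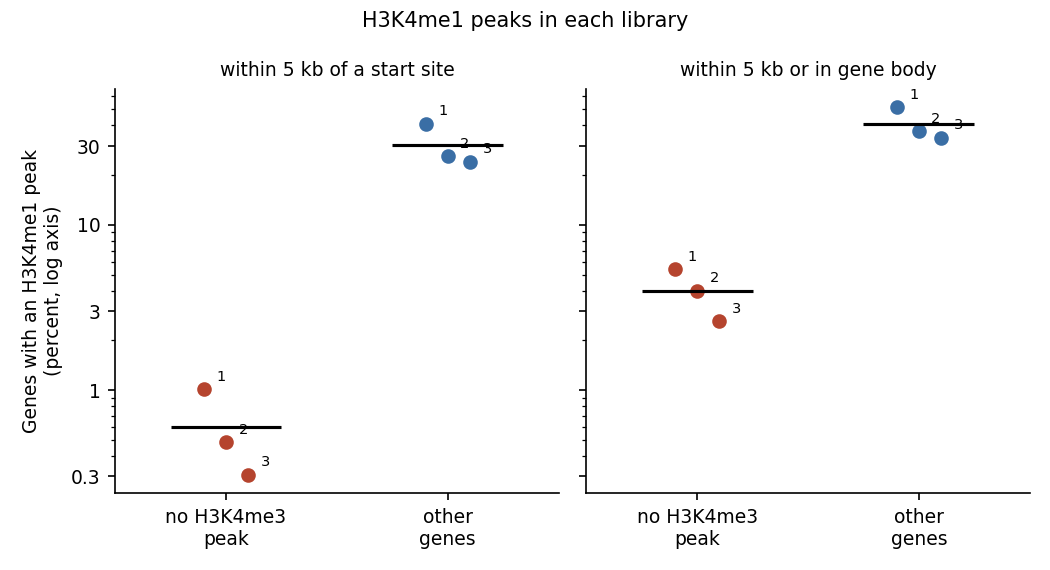
Points are the 3 H3K4me1 libraries, numbered by replicate, and show the percent of genes with an H3K4me1 peak on a log axis, for genes without an H3K4me3 peak (left in each panel) and other genes (right), with the mean as a line. Left panel, peaks within 5 kb of a TSS; right panel, peaks within 5 kb or in the gene body. Shares are 0.307% to 1.01% and 2.61% to 5.40% without H3K4me3, below the 24.2% to 51.5% of the other genes in every library.

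The 122 members with H3K4me1 near a TSS had it in 1 library in 121 cases. The exception was Rpgrip1, with a peak of 3.66-fold enrichment in replicate 1 and 7.31-fold in replicate 3 and none in replicate 2, and it was singled out after its values were seen. Its nearest H3K4me3 peak lay 5.86 kb away. Of the 122 genes 44 (36.1%) had an H3K4me3 peak within 10 kb, against 14.4% of all members, so many lay near the limit of the selection. By symbol prefix 7 were Olfr genes and 1 was a Vmn gene, beside the vomeronasal receptor gene V1rd19, whose symbol has another prefix, and 4 were of repeated sequence.

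With the gene body included, 369, 273 and 178 members had an H3K4me1 peak, which is 5.40%, 4.0% and 2.61%, a mean of 4.0% ± 1.40 (SD, n = 3). In the other genes the mean was 40.8% ± 9.46, and the difference was -36.8 ± 8.16 percentage points (exact sign-flip permutation p = 0.25, the smallest possible), or -14.1 at a −log10 q-value of at least 5. In at least 1 library 559 members (8.18%) had such a peak, against 46.0% of all genes, and in all 3 libraries 74 members (1.08%), against 13.1% of all genes. Because members were shorter, with a median of 10.2 kb against 21.6 kb, the density of peaks was compared as well. The windows and bodies of members held 1.87, 1.09 and 0.871 H3K4me1 peaks per Mb in replicates 1, 2 and 3 and those of other genes 24.0, 13.7 and 12. The log2 ratio was -3.68, -3.65 and -3.79, a mean of -3.71 ± 0.07 (SD, n = 3, exact sign-flip permutation p = 0.25). Where H3K4me1 peaks did occur at members, their median fold enrichment of 4.88 ± 0.215 was close to the 5.09 ± 0.172 of peaks at other genes (SD, n = 3). The 2 sets share peaks, because windows of members and other genes can overlap. Of 671, 392 and 313 peaks in member windows, 530, 331 and 254 lay in member windows alone in replicates 1, 2 and 3.

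The share with H3K4me1 differed with gene length. Among members up to 5 kb long 1.48% had H3K4me1 at the promoter or in the gene in at least 1 library, 3.36% from 5 to 20 kb, 10.7% from 20 to 50 kb, 20.7% from 50 to 100 kb and 29.6% above 100 kb. In the same classes the other genes had 47.8%, 57.9%, 70.3%, 77.2% and 76.8%, so members were below them at each length. Of the Olfr members 8 and of the Vmn members 4 had any H3K4me1. Of the CpG-rich members 15.6% had it, against 7.29% of the remaining members, but the former were also longer.

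A set of 66 members carried H3K4me1 in the gene body in all 3 libraries and none near a TSS in any. Their median length was 105 kb and none was an olfactory or vomeronasal receptor. Of their 640 body peaks, summed over libraries, 34 (5.31%) lay within 5 kb of the TSS of another coding gene, and 556 (86.9%) lay over an H3K4me3 peak.

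The gene with most such peaks was Arhgap26, a GTPase-activating protein (chr18:38676718-39110534), with 22, 12 and 12 H3K4me1 peaks in replicates 1, 2 and 3 and 17, 19 and 17 H3K4me3 peaks in its body. The H3K4me3 peak nearest to any of its own coding TSSs lay 21.5 kb away. Of its 46 H3K4me1 body peaks 6 lay within 5 kb of the start of another coding gene. Rapgef5, an activator of Rap GTPases (chr12:117516479-117759737), had 17, 13 and 12 H3K4me1 peaks. Sox5, a transcription factor (chr6:143828425-144781977), had 13, 11 and 7 H3K4me1 and 27, 21 and 25 H3K4me3 peaks. All 3 genes were therefore marked by both modifications inside the transcribed region in every library.

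Among shorter genes Bfsp2, a filament protein of the lens (chr9:103424924-103480420), had 8, 4 and 7 H3K4me1 peaks in 55.5 kb, and Mroh2a (chr1:88226986-88262289) had 6, 4 and 5 in 35.3 kb, with the highest fold enrichment of the 10 genes in replicate 1 at 14.8. Cx3cr1, the fractalkine receptor (chr9:119901616-120069879), had 7, 5 and 5, of which 12 of 17 lay within 5 kb of the start of another coding gene. The other 4 of the 10 were Agbl4, a carboxypeptidase that trims tubulin, with 18, 9 and 9 peaks, Pakap with 18, 5 and 8, Mical3, an actin-oxidising enzyme, with 8, 8 and 3, and 4930469K13Rik with 7, 5 and 4. In Agbl4 4 of 36 peaks and in 4930469K13Rik 2 of 16 lay within 5 kb of the start of another coding gene. For 9 of the 10 genes the promoter ratio of CpG was under 0.4, with Agbl4 at 0.443.

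The selection rested on starts of coding transcripts in the basic annotation. When the starts of all transcripts of a gene in the full annotation were used, 373 of the 6831 members (5.46%) had an H3K4me3 peak within 5 kb of one. Among the 66 genes with H3K4me1 only in the body this was the case for 25, including Rapgef5, Sox5, Bfsp2, Mical3 and Mroh2a, whereas Arhgap26, Agbl4, Pakap, Cx3cr1 and 4930469K13Rik still had no peak near any annotated start.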

How the data were processed

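Peak lists of 3 H3K4me3 and 3 H3K4me1 Mint-ChIP libraries were used, each called by the authors per library and not on pooled reads. Libraries were grouped by the mark in their titles. An H3K27ac antibody stands in the labels' protocol, whereas titles, antibody labels and the study's methods name the marks used here. The deposited lists are in broad (H3K4me3) and narrow (H3K4me1) layout and give fold enrichment, a linear ratio over background, with −log10 p-value, −log10 q-value and a score from the authors' caller. Fold values were only described, the −log10 q-value served one alternative and the score was not used. The submitters' processing notes name BWA, Picard, HOMER, Genrich and mm10. The caller's settings and control are not given in the sources used here. The number of reads per library is unknown here, so precision rests on 3 libraries per mark and on peak numbers, and Wilson intervals (95%) cover counting error only.

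Genes were those of the GENCODE M21 basic annotation of GRCm38; 0 peaks lay past a chromosome end. Of 20807 autosomal coding genes, 87 without a coding TSS were left out, which left 20720 genes with 39540 TSSs. A peak edge within 5 kb counted as near, a shared 1 bp as overlap. CpG and unique words were read from the RefSeq GRCm38.p6 genome, and promoter sequences from RefSeq, which matched 4940 members (72.3%). Families are symbol prefixes. Scripts were tested on simulated data. Members and others were compared within each H3K4me1 library by two-sided exact sign-flip permutation tests over 3 libraries (smallest p 0.25). Python 3.11.15, numpy 2.4.6, pandas 2.3.3 and scipy 1.17.1 were used. Alternatives covered the window, peak strength, libraries, TSS set and gene sets. Members, gene lists and tests were chosen with earlier results of these data known. Named were the 12 families with most members and the 5 largest with the smallest share, the ends of the 5 longest runs, the 10 members with most gene body H3K4me1 peaks in all libraries, listed genes, the genes nearest the distance limit and the 5 highest CpG ratios. The rule also asked for members with H3K4me1 near a TSS in 3 libraries, of which there were none. A gene next to the distance limit that this rule names is not reported here. Other names were added after their values were seen.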

Additional observations from a re-analysis of the deposited data

Results flagged for a closer look

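The X chromosome was outside the selection, which was limited to autosomes. Of 948 X-linked coding genes, 525 had no H3K4me3 peak within 5 kb of a coding TSS in any library, which is 55.4% against the 33.0% of autosomal genes. It was singled out because it comes from data that no comparison above uses. The difference was not tested, and the copy number of the chromosome in these mice was not examined.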

How the results depend on the processing

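Of 89 values computed under alternatives 23 were classed as moved and none as reversed. Member numbers, shares of members in runs, CpG ratios and the Olfr share have no sign and could not reverse. No tested difference turned its sign, but some changed in size, and no p-value can pass 0.05 in this design. The number of members was 11540 when only the 10000 best peaks per library counted, 9850 at a −log10 q-value of at least 5, 8058 when a peak in 1 library was allowed, 5850 with a 10 kb window and 7138 to 7394 when an H3K4me3 library was left out. The share of members in runs (46.7%) was 48.0% with a 2 kb window, 47.5% with 10 kb, 51.1% at a −log10 q-value of at least 5, 54.4% with the 10000 best peaks, 50.3% when a peak in 1 library was allowed, 48.0% with the TSSs of all transcripts, 42.5% without predicted names, 37.7% without genes of repeated sequence and, chosen after seeing the data, 35.8% without Olfr and Vmn genes; it was 47.4% to 48.0% when a library was left out. The median CpG ratio (0.194) was 0.186 with 10 kb, 0.211 with a peak in 1 library allowed and 0.187 with all transcripts. It was 0.202 without predicted names, 0.218 without repeated sequence and 0.197 to 0.202 when a library was left out. In alternatives chosen after seeing the data it was 0.256 at the stricter q-value, 0.308 with the 10000 best peaks and 0.239 without Olfr and Vmn genes. The Olfr share was 98.0% with a peak in 1 library allowed, an alternative chosen after seeing the data. The cause of these shifts was not tested beyond the genes or peaks each alternative removes. For H3K4me1 near a TSS the difference was -24.7 to -32.8 percentage points when an H3K4me1 library was left out, where the exact p cannot go below 0.5. With peaks at a −log10 q-value of at least 5 it was -9.37, with 0.288% of members and 9.66% of other genes marked, and with the gene body the shares were 1.61% and 15.7%. No paired analysis was possible because no result compares libraries of different groups that share a replicate number; the sign-flip tests compare gene sets within each H3K4me1 library.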
